A study of Mus musculus with 4 samples.

Results

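Creatine kinases move phosphate between ATP and creatine, and myoglobin binds oxygen inside muscle cells. The 7 genes described here are the creatine kinase genes Ckm, Ckmt2, Ckmt1 and Ckb, the creatine synthesis genes Gatm and Gamt, and the myoglobin gene Mb. Their regions were peaks of the acetylated histone H3K27ac, which marks active promoters and enhancers, from the list of replicated peaks. A peak was taken where it lay within the gene or up to 50 kb to either side. The genes were found by name in GENCODE M21 on mouse build mm10. The rule gave 60 of the 63061 peaks of the list, around 7 of 21728 protein-coding genes on the autosomes and X.

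The peaks came from chromatin immunoprecipitation and sequencing of frozen hearts. The mice were B6CASTF1/J females 2 months old, from the F1 cross between the strains C57BL/6J and CAST/EiJ. All 4 libraries belong to 1 condition, and the labels name no treatment. Pools of 2 hearts made up the 2 biological replicates, and each pool gave 2 technical replicates. Both pools carry 1 donor identifier in the labels, so differences between them may be technical. The 4 deposited lists are the replicated peaks and a pooled list, both made from both replicates, and 1 list for each replicate alone. No read numbers are given in the files used here, so depth is unknown, and with 1 condition and 1 list per replicate no test was made. All values below describe these lists.

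In heart and skeletal muscle the cytosolic dimer made from Ckm sits at the sarcomere, where it restores ATP from phosphocreatine. The sarcomeric mitochondrial kinase made from Ckmt2 sits between the mitochondrial membranes and charges creatine there, and Ckmt1 and Ckb encode the ubiquitous mitochondrial and the brain-type forms. Creatine itself is made from arginine and glycine by the product of Gatm, chiefly in kidney and pancreas, and then of Gamt, chiefly in liver, and muscle takes it up through the transporter Slc6a8.

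The sequences shown next come from 5 members, since the values that follow turn on these places. They lie before starts with a promoter peak, or inside a peak upstream or in an intron. The bases before the Ckb start were themselves outside the peaks of the replicated list. They are on mm10, from the strand of the gene, 5′ to 3′. The promoters are the 250 bases before a RefSeq start (GRCm38.p6, the same primary chromosomes), and 7 of 7 members matched a RefSeq promoter entry. The windows of 300 bases were read from the genome around 1 match, chosen after the matches were seen. Capitals mark matches, on either strand, to the E-box CACCTG, the E-box CAGCTG, the MEF2 consensus, the CArG box, the CACC box with the letters CCACCC, the GC box with the letters GGGCGG, the AP-1 consensus TGANTCA, the TEAD consensus CATTCC or the TATA box TATAAA.
Ckm upstream, chr7:19409794-19410093: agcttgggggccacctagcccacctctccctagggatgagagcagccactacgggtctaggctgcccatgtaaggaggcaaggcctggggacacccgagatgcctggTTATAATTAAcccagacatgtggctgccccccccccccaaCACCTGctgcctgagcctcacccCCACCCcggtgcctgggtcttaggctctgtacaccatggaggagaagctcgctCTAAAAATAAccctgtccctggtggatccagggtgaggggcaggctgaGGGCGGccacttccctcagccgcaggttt
Ckmt2 promoter, chr13:91876886-91877135: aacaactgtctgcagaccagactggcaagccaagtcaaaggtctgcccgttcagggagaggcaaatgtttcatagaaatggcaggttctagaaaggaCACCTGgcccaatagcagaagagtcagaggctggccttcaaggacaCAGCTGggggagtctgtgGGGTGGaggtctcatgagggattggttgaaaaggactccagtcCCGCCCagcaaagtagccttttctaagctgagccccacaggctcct
Ckb promoter, chr12:111672339-111672588: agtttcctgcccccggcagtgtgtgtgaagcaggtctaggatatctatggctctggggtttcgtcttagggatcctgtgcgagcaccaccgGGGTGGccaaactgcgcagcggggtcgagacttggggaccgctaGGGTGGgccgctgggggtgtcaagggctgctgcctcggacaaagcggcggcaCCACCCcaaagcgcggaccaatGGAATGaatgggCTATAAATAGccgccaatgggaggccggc
Gamt promoter, chr10:80261013-80261262: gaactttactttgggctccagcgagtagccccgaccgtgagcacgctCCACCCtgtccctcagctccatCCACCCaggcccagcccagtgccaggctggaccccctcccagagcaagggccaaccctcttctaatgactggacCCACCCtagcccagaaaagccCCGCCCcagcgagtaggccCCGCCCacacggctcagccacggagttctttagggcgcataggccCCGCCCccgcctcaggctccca
Mb promoter, chr15:77022788-77023037: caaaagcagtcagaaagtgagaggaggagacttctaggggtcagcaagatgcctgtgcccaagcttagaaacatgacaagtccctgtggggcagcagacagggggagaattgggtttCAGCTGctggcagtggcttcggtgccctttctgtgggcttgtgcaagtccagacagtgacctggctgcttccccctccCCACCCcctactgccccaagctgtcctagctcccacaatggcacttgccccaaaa
Mb intron, chr15:77037502-77037801: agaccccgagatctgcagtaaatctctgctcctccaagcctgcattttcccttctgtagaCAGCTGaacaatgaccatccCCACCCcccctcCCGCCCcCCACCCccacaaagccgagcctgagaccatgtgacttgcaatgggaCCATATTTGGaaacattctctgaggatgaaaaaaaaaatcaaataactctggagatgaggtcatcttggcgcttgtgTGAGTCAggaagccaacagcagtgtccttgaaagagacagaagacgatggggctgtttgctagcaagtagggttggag

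The tissue label was read against start sites of marker genes. A promoter peak, meaning a peak within 1 kb of any annotated start site of the gene, was present at 6 of 6 cardiomyocyte markers, 4 of 4 endothelial and 4 of 4 fibroblast markers. Of 4 smooth muscle markers 2 had one, and Myh11 and Cnn1 did not, though Myh11 had one in the replicate 2 and pooled lists. Of 6 skeletal muscle markers Actn3 alone had one, 0.474 kb wide, and the summed peak length within 50 kb ranged from 0 to 5.39 kb over the 6. The lists for neuron, kidney tubule, hepatocyte and exocrine pancreas had 0 of 4 each, and of 4 erythroid markers Klf1 and Epor had one and the globin genes Hbb-bs and Hbb-bt had none. In whole tissue, acetylation in few cells and weak acetylation in many cells cannot be told apart, so no value below belongs to a cell type.

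A promoter peak was present at 6 of 7 members, against 57.3% of protein-coding genes. Ckmt1 was the exception. In the replicate 1 list 5 members had one, against 55.7% of genes, and in the replicate 2 list 6, against 58.4%. The change between these lists was Gatm, which had no promoter peak in replicate 1. Counted at the first base of the gene alone, 4 members had a peak, against 53.7% of genes. The reference start below is the start of the lowest-numbered GENCODE transcript of a gene, and counted there 6 members had a peak, against 53.2% of genes. Ckm and Mb made that difference, since both have an annotated transcript that begins upstream of the reference start, by 6.287 kb for Ckm and by 27.943 kb for Mb. With so few genes, the shares of members were not read as standing apart from the background.

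The summed length under peaks within 50 kb, called acetylated length here, differed widely among the members. From most to least in the replicated list it was 26.8 kb at Mb, 24.2 kb at Ckb, 17.1 kb at Gamt, 11.6 kb at Ckm, 7.74 kb at Ckmt2, 4.67 kb at Gatm and 3.27 kb at Ckmt1. The median gene had 4.39 kb. The values in the replicate 1 list were 23.9, 20.1, 14.1, 10.6, 6.91, 3.76 and 3.29 kb in the same order, and in the replicate 2 list 31.2, 28.0, 20.7, 13.3, 8.23, 5.36 and 4.96 kb. Every member was longer in replicate 2, by 1.19 to 1.51 times with a median of 1.39, and the median over 16904 genes with a replicate 1 peak was 1.42. Both replicate lists gave the same order of members by length. The ranges between the replicate lists overlapped for Mb and Ckb, for Ckb and Gamt, and for Gatm and Ckmt1. Within each replicate list, however, the first gene of each pair was the longer. Since replicate 2 was longer at every member, the overlap of ranges cannot decide whether the lengths within these pairs differ. Ckm lay apart from Gamt above it and Ckmt2 below it, and Ckmt2 lay apart from Gatm. Mb and Ckb together held 51.0 of the 95.4 kb found in the 7 windows. The windows were larger for longer genes, at 135.184 kb for Mb and 102.978 kb for Ckb. As a share of the window in the replicated list, Ckb had 23.5% and Mb 19.8%, which reverses their order by length. The other members kept their order by this share.

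**Figure D1:**
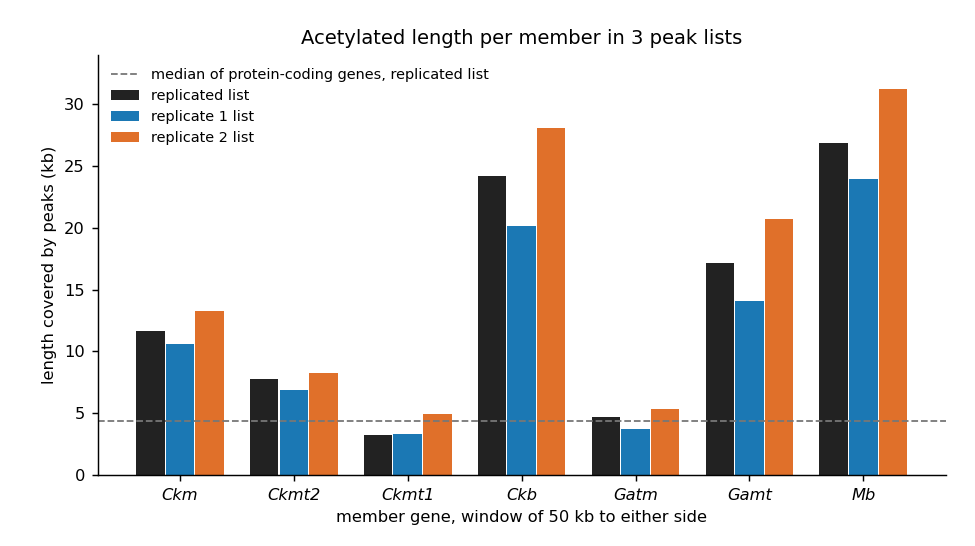
Length covered by H3K27ac peaks (kb) from 50 kb before to 50 kb after each member in the replicated, replicate 1 and replicate 2 lists (bars), with the median of 21728 protein-coding genes in the replicated list, 4.39 kb, as a dashed line. Mb, Ckb and Gamt stand highest, and the replicate 2 bar exceeds the replicate 1 bar for every member.

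Part of this length lay at other genes. When only sequence nearer to a start site of the member than to that of any other protein-coding gene was counted, 18.5 kb remained at Mb, 5.30 kb at Ckmt2, 4.82 kb at Ckb, 3.82 kb at Ckm, 1.96 kb at Gatm, 1.77 kb at Gamt and 0 at Ckmt1. By this count Ckmt2 followed Mb, ahead of Ckb and Gamt. Of the 60 peaks, 8 lay at a start site of a member and 23 at a start site of a neighbouring coding gene (38.3%, exact binomial 95% interval 26.1% to 51.8%), with 1 peak counted in both. The other 30 lay at neither, and 7 had their summit inside a member gene. With start sites of non-coding genes included, 34 of the 60 lay within 1 kb of a start site and 26 elsewhere. Over nearly all peaks of the list these numbers were 20563 and 42497. No share over all peaks was counted for starts of neighbours, so the 38.3% was not read as unusual. The map of peaks shows starts of neighbours most clearly for Gamt, where 13 of 14 peaks lay at them, 13 of the 23 counted above. Peaks of 1 window are not independent, so the interval covers counting only.

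**Figure D2:**
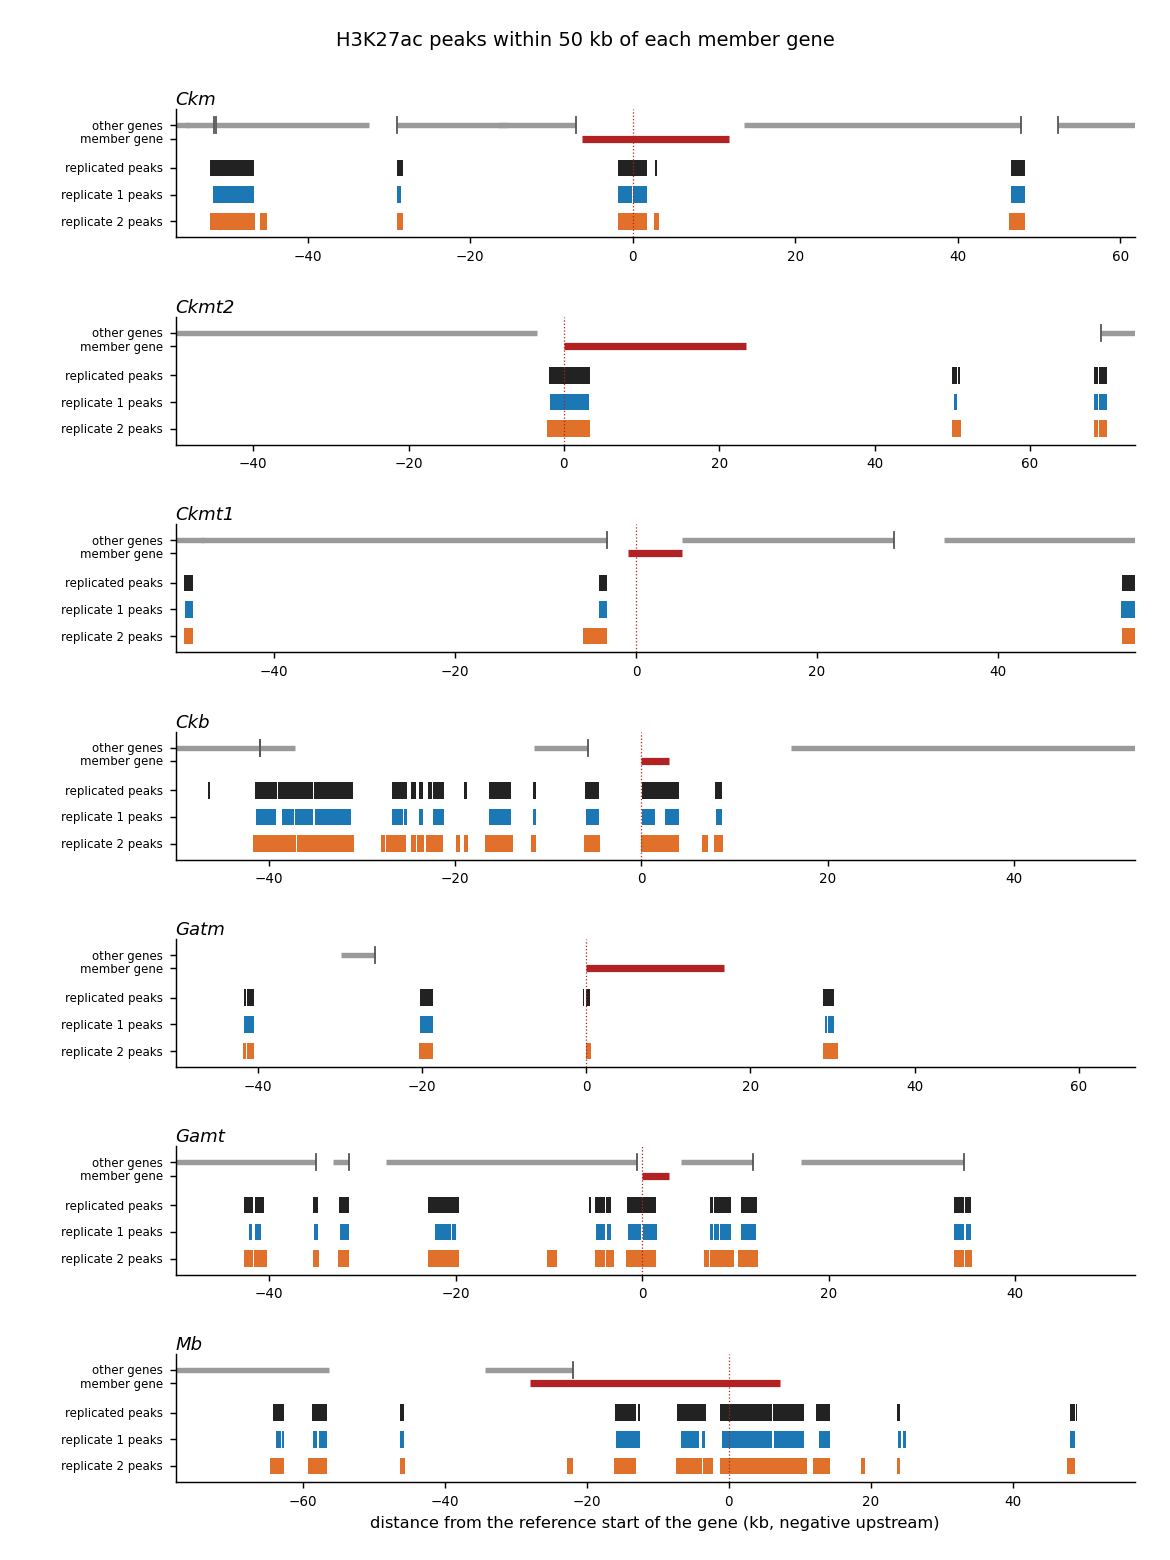
Peaks of the replicated, replicate 1 and replicate 2 lists (black, blue and orange bars) by distance from the reference start of each member (kb, dotted line at 0), with the member gene in red, other coding genes in grey and their first bases as ticks. The body of Ckb is covered almost end to end in the replicated and replicate 2 lists, and for 64.2% in the replicate 1 list. The acetylation of Mb runs on both sides of the internal start, and no bar touches Ckmt1.

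The muscle cytosolic kinase gene Ckm (chr7:19404776-19422841, plus strand) had 5 peaks in its window. The peak at its reference start was 3.54 kb wide, wider than 90.3% of the widest promoter peaks of 12450 genes that had one, and had a deposited fold of 15.1, the authors' enrichment ratio for the peak. Its summit lay at -362 bp from that start, negative meaning upstream, in an intron of the longer transcript. In replicate 2 this peak was 3.59 kb wide, and in replicate 1 it was split into pieces of 1.67 and 1.74 kb by a gap from -144 to -48 bp. A further weak peak of 280 bp with a fold of 2.84 stood 2.79 kb downstream, in replicate 2 but not in replicate 1. No peak stood at the first base of the gene or at the neighbour Klc3, whose first base lies 672 bp from it on the other strand. The strongest and widest peak of the window in the replicated list, 5.38 kb with a fold of 17.0, lay at -48.9 kb, at the starts of Cd3eap and Ppp1r13l. In the replicate 2 list its fold was 10.5, below the 18.1 of the peak at the Ckm start and the 12.9 of the peak at the Mark4 start.

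The 300 bases printed for Ckm lay wholly inside the peak at its start. The mouse gene is known for an upstream enhancer with E-boxes and a MEF2 site, bound by myogenic and MEF2 factors in skeletal muscle. In the printed window the MEF2 matches begin at -1162 and -1046 bp from the reference start, with CACCTG between them at -1122 bp. A further MEF2 match in the same peak lay 1020 bp downstream of the start. At the summits of all peaks within 1 kb of a start site, 1.89% of 300-base windows held a MEF2 match and 21.7% held CACCTG. The printed window was placed on its matches, so these shares say nothing of how rare they are there, and the summit window of this peak does not hold them.

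The mitochondrial kinase gene of muscle, Ckmt2 (chr13:91853387-91876885, minus strand), had 1 peak at its start, which made up 5.30 of the 7.74 kb in its window. It had a fold of 22.9 and was wider than 96.2% of promoter peaks and stronger than 86.3%. It was whole in both replicates, at 5.10 kb in replicate 1 and 5.55 kb in replicate 2, and its summit lay at -331 bp from the start. The other 4 peaks of the window were 50.4 to 69.3 kb downstream, 2 of them at the start of Zcchc9. The printed Ckmt2 promoter has CACCTG from base 98, CAGCTG from base 144, a CACC box and a GC box, and all 250 of its bases were inside the peak. Of 21723 promoters of the same length, 17.1% held CACCTG, 11.7% CAGCTG, 29.0% the CACC box and 41.4% the GC box. A MEF2 match stood at -609 bp from the start in the same peak.

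The ubiquitous mitochondrial kinase gene Ckmt1 (chr2:121357714-121363737, plus strand) had no peak within 1 kb of any of its 10 start sites in the 4 lists, and none in its body in the replicated and both single-replicate lists. The nearest peak edge lay 2364 bp from a start site. That peak, 829 bp wide with a fold of 11.5, was at the start of the neighbouring gene Ppip5k1. It was 2002 bp wide in replicate 2 and 797 bp in replicate 1. The strongest peak of the window, 2.96 kb with a fold of 19.5, lay at the starts of Catsper2 and Pdia3, 55.5 kb away. Of the mitochondrial kinase genes, the sarcomeric Ckmt2 thus had a promoter peak of 5.30 kb and the ubiquitous Ckmt1 had none, and the same held in each replicate list.

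The brain-type kinase gene Ckb (chr12:111669361-111672338, minus strand) is 2.98 kb long and its body was covered for 99.4% of its length, more than in 99.4% of genes. Coverage was 64.2% in replicate 1 and 100% in replicate 2. At the other members the covered share of the body in the replicated list was 53.7% at Gamt, 45.1% at Mb, 21.1% at Ckm, 14.3% at Ckmt2, 2.97% at Gatm and 0 at Ckmt1. These genes are 2.86, 35.2, 18.1, 23.5, 16.8 and 6.02 kb long in the same order. A peak of a given width fills more of a short gene, so the shares are not comparable across lengths. The Ckb peak was 3998 bp wide, with a fold of 27.4 that exceeded 94.0% of promoter peaks. It began 19 bp downstream of the start and ran 1039 bp past the 3′ end of the gene. Its summit lay past that end, by 619 bp, and not at the start. In replicate 1 the peak was in pieces, of which the piece at the start was 1.44 kb wide with a fold of 7.47, while the replicate 2 peak was whole at 4.02 kb. None of the 250 bases printed before the start was inside a peak of the replicated list, and the replicate 2 peak reached 4 of them. They hold a MEF2 match at bases 222 to 231 that overlaps a TATAAA at 223 to 228, and 2.74% and 12.3% of promoters held these.

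Upstream of Ckb, 10 peaks covering 15.2 kb stood between those at the starts of Trmt61a and of Bag5 and Apopt1. The widest of them, 4206 bp with a fold of 14.0, lay at -33.0 kb, at a start of the non-coding gene Gm36635. Joined within 12.5 kb, the peaks at Ckb formed a region of 117.087 kb with 29 peaks that ran on beyond the window, ranked 70 of 20740 regions by covered length. Of the 15 peaks of the Ckb window 12 were at no start site of a coding gene. These distances do not say which gene a peak acts on.

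Of the synthesis genes, Gatm (chr2:122594467-122611303, minus strand), whose product makes guanidinoacetate, had the weakest promoter acetylation of the 6 members with any. A peak of 500 bp with a fold of 2.99 and a peak of 178 bp with a fold of 3.03 lay to either side of its start, with a gap from -196 to 27 bp. Its widest peak was wider than 7.12% of promoter peaks. Replicate 2 had 1 peak of 0.619 kb there with a fold of 3.39, and replicate 1 and the pooled list had none. Stronger peaks stood away from the gene, the strongest 1.59 kb wide with a fold of 10.4 at -19.5 kb, at a start of Spata5l1, which this annotation does not class as coding. The markers of kidney tubule and exocrine pancreas, the organs in which Gatm is chiefly active, had no promoter peak, as given above. The hepatocyte markers had none either, while Gamt, chiefly active in liver, had a promoter peak of 3.09 kb with a fold of 25.7. Whether the marker counts bear on the peaks at either gene was not tested.

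Gamt (chr10:80258151-80261012, minus strand), whose product methylates guanidinoacetate to creatine, stood in dense acetylation with its neighbours. Its promoter peak was 3.09 kb wide with a fold of 25.7, above 86.9% of promoter peaks in width and 91.8% in fold. The same peak covers the start of Dazap1, an RNA-binding protein gene whose first base lies 474 bp away on the other strand. The summit was on the Dazap1 side, at -609 bp from the Gamt reference start. In replicate 1 the peak was split by a gap from -86 to 35 bp, and the Gamt piece, 1496 bp with a fold of 4.25, was weaker than the Dazap1 piece, 1484 bp with a fold of 21.3. In replicate 2 it was whole at 3.20 kb. Of the 14 peaks in the window, 13 lay at starts of other coding genes, among them the strongest of all 60, 1025 bp with a fold of 28.2 inside Dazap1. The printed Gamt promoter has a GC box 3 times, at bases 165, 184 and 229, and a CACC box 3 times.

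Starts of Ckm, Gatm and Gamt were thus met by gaps of 97, 224 and 122 bp between peaks of 1 list, in replicate 1 for Ckm and Gamt and in the replicated list for Gatm. The gap held the start of Gatm and that of Gamt and ended at -48 bp at Ckm. The peaks at the starts of Ckmt2 and Mb were unbroken across the start in all 4 lists.

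The myoglobin gene Mb (chr15:77015487-77050670, minus strand) had the widest promoter peak of the members. At its reference start stood a peak of 7.37 kb with a fold of 16.9, wider than 98.6% of promoter peaks and stronger than 67.9%. It was 7.00 kb wide in replicate 1, while in replicate 2 it was joined with the next peak downstream into 12.3 kb. The peaks with summits from -14.7 to 13.9 kb numbered 6 and covered 21.2 kb of 30.3 kb. The neighbour of the promoter peak downstream was 4.39 kb wide with a fold of 14.8, at a start of the non-coding gene Gm49540, and the neighbour upstream was 4.11 kb wide with a fold of 13.1. No peak of the replicated list stood at the first base of the gene, 27.943 kb upstream, nor at the first base of Apol6, which lies inside the longest transcript of Mb on the other strand. The replicate 2 list had a peak with a fold of 4.43 at the Apol6 start, from -22.8 to -21.9 kb.

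The strongest peak of the Mb window was in an intron of the longest transcript, at -14.7 kb from the reference start. It was 3.04 kb wide with a fold of 27.4, higher than 98.9% of all peaks in the list. The replicate 1 peak there was 3.42 kb wide and the replicate 2 peak 3.08 kb. The printed intron window lies in it and holds the only CArG box found in the 60 peaks, beginning at -14929 bp, with CAGCTG, an AP-1 match, 2 CACC boxes and a GC box. A MEF2 match lay in the same peak at -15828 bp. The CArG box is known as the site of serum response factor, a regulator of muscle genes. At summits of peaks away from start sites, 1.58% of 300-base windows held a CArG box, 18.6% CAGCTG, 9.52% an AP-1 match, 20.6% a CACC box and 5.09% a GC box. The printed window was placed on its CArG box, and the summit window of the same peak held none of these 5. Over whole peaks the members had 0.0103 CArG boxes per kb, against 0.0526 per kb of all peaks. The printed Mb promoter has CAGCTG from base 118 and a CACC box from base 196. An element of the latter kind is known from the human myoglobin promoter. Mb has more than 1 RefSeq promoter entry, and the printed one precedes a start upstream of the reference start. Another entry holds CAGCTG from base 58 and a CACC box from base 136.

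**Figure D3:**
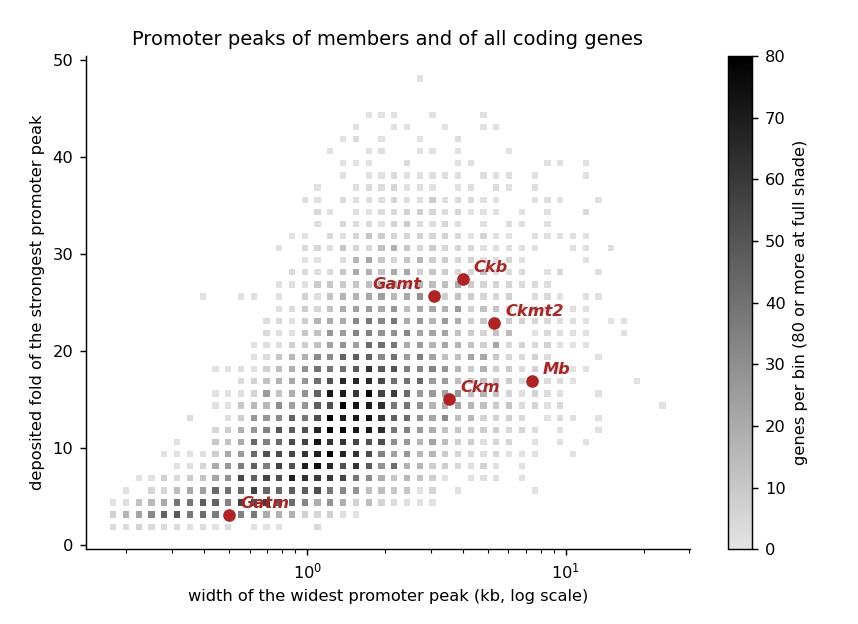
Width of the widest promoter peak (kb, log scale) against the deposited fold of the strongest promoter peak for the 6 members with one (red) over 12450 protein-coding genes (grey bins). Mb is wide with a middling fold of 16.9, Ckb and Gamt have folds of 27.4 and 25.7, and Gatm lies low and narrow. Ckmt1 has no promoter peak and is not drawn.

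Base composition at the starts separated the members in another order. The CpG ratio, observed over expected from the base content within 500 bp of the reference start, was 0.152 at Ckm, 0.176 at Mb and 0.198 at Ckmt2, the 3 genes of the muscle forms and of myoglobin. It was 0.424 at Ckmt1, 0.536 at Gamt, 0.576 at Gatm and 0.678 at Ckb, and the median of 21715 genes was 0.557. Widths did not follow this order. Mb and Ckmt2, with low ratios, had peaks of 7.37 and 5.30 kb, and Gatm, with a ratio above the median, had 500 bp. Around the first base of the gene, the place planned for this count, Ckmt1 was lowest at 0.141. Ckmt2 followed at 0.198, Ckm at 0.245 and Mb at 0.330, and Gamt, Gatm and Ckb had 0.534, 0.576 and 0.678. The 3 genes of the muscle forms and of myoglobin thus stood apart only at the reference start, which was chosen after values were seen.

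**Figure D4:**
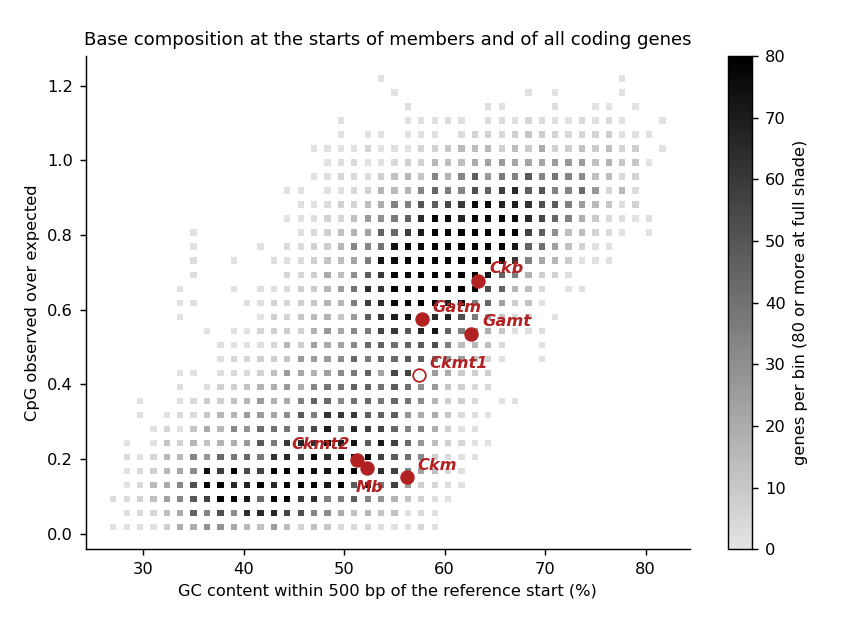
GC content (%) against CpG observed over expected within 500 bp of the reference start for the 7 members (red, open for Ckmt1 without a promoter peak) over 21715 protein-coding genes (grey bins). Ckm, Mb and Ckmt2 lie between 0.152 and 0.198, and the other 4 members at 0.424 or above. Around the first base of the gene, not drawn, Ckmt1 is lowest at 0.141.

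Consensus sequences in the 60 peaks were counted on both strands in the 300 bases around each summit. The search covered the consensus sequences named above and the general E-box CANNTG, of which both E-boxes above are kinds. It also covered AGATAA for the factors of the GATA family, TNAAGTG for the cardiac factor NKX2-5, AAGGTCA for the receptors named ERR, and the consensus of NRF1. MEF2 was in 0 of 60 summit windows, against 1.89% of all peaks within 1 kb of a start site and 4.69% of those elsewhere. CAGCTG was in 11 of 34 member peaks within 1 kb of a start site (32.4%, against 17.5% of 20563 such peaks) and in 3 of 26 elsewhere (11.5%, against 18.6%). CACCTG was in 6 of 34 (17.6%, against 21.7%) and 1 of 26 (3.85%, against 18.7%). Over whole peaks the members held 13 MEF2 matches, 0.134 per kb against 0.169 per kb of all peaks, and 98 CACCTG, 1.01 against 0.773 per kb. Matches to ERR were 0.361 per kb against 0.228 and to NKX2-5 0.619 against 0.553, while those to GATA were 0.330 against 0.525 and to TEAD 0.537 against 0.596. In summit windows within 1 kb of a start site, ERR was in 8.82% of member peaks against 4.76% and NKX2-5 in 11.8% against 10.3%. GATA was in 2.94% against 7.49% and TEAD in 2.94% against 12.6%. Elsewhere ERR was in 11.5% against 6.98%, NKX2-5 in 15.4% against 16.6%, GATA in 3.85% against 15.5% and TEAD in 15.4% against 17.0%. These densities and shares are counts without a test, and a match is a description of the letters.

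Most of the 60 peaks were found in each replicate alone. Of the 60, 49 had a counterpart in each single-replicate list (81.7%, exact interval 69.6% to 90.5%), against 73.0% of all peaks. The replicate 2 list alone had 6, the replicate 1 list alone had 1 and neither had 4. These 11 peaks were narrow and weak, 178 to 500 bp wide with folds of 2.66 to 4.12. They included both Gatm promoter peaks, so the call at Gatm rests on peaks of this kind. Promoter peaks of Ckm, Ckmt2, Ckb, Gamt and Mb were in both lists. The median member peak was 985.5 bp wide with a fold of 6.07, and the medians over the whole list were 693 bp and 4.55.

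**Figure D5:**
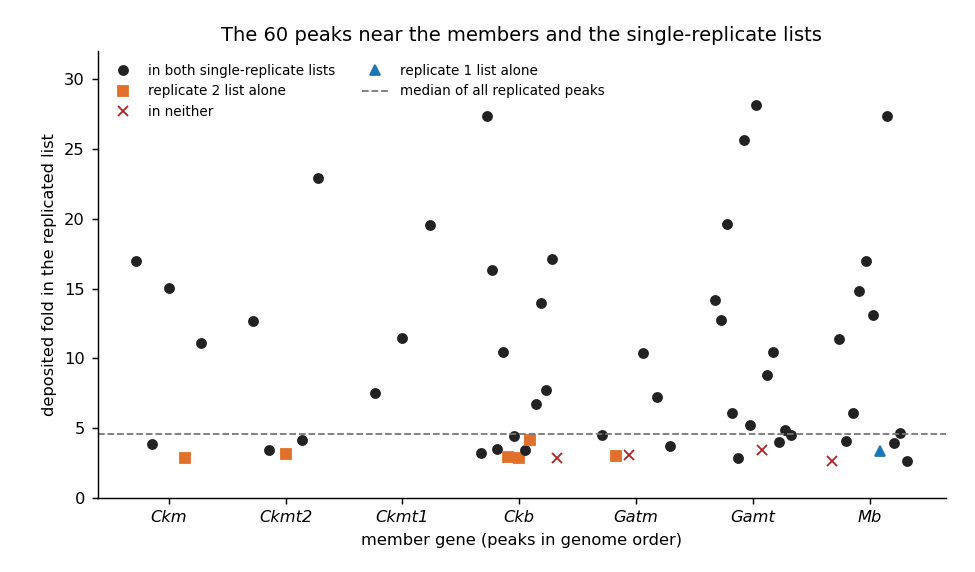
Deposited fold of each of the 60 peaks in the replicated list, by member in genome order, with the symbol showing whether the peak overlaps a peak of both single-replicate lists, of 1 of them or of neither. The 11 peaks missing from at least 1 list all have folds of 4.12 or less, under the median of all peaks (dashed line, 4.55).

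Other genes of the pathway were counted from a list of 27. Of these, 20 had a promoter peak and 7 did not, where 57.3% of protein-coding genes had one. All 6 genes for transport across the mitochondrial membranes had one, and the adenine nucleotide carrier gene Slc25a4, which exchanges ADP and ATP for the mitochondrial kinase, had the widest at 7.21 kb. The channel gene Vdac1 followed at 6.36 kb. The fold at Slc25a4 was 8.98, the lowest of these 6 genes and below the median of 13.2 over all genes with a promoter peak. All 9 genes of the adenylate kinases and of nucleotide and pyrophosphate balance had one. Of 6 genes for creatine transport and methyl donors, 4 had one, and the methionine adenosyltransferase genes Mat2b and Mat2a, which supply the methyl donor, reached 3.58 and 3.34 kb. The transporter gene Slc6a8, by which creatine enters cells, had a peak of 1.90 kb with a fold of 14.5. Gnmt, a methyltransferase of liver, and Arg2, a mitochondrial arginase, had none. Of 6 other globin genes, Cygb had one, and Ngb, Hba-a1, Hba-a2, Hbb-bs and Hbb-bt did not, while Mb had its 7.37 kb.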

How the data were processed

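H3K27ac was measured by chromatin immunoprecipitation and sequencing in 4 heart libraries. The authors deposited 4 peak lists on mm10, made after technical replicates had been joined, per the file lists beside the libraries. Each peak has positions, a summit, a fold (an enrichment ratio, read as over a control from the column order of this format) and −log10 p and q values, all as the authors deposited them. The sources used here name no aligner, peak caller or read numbers, so depth is unknown. Reads of a hybrid were placed on mm10, and what strain variants do to the peaks was not tested.

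Peaks were intersected by at least 1 bp with windows and start sites of GENCODE M21 in Python 3.11.15, with genes of the same name counted once and Y left out because the mice were female. No fold or q was compared between lists. Exact Clopper-Pearson 95% intervals came from SciPy 1.17.1 and cover counting of peaks only. Sequence came from GRCm38.p6, in whose chromosomes all peak ends lay. The counting functions were checked on made-up peaks first. Members and gene lists were chosen with earlier results of these data known. Genes named were the 7 members, coding neighbours at the strongest or widest peak of a window, pathway genes without a promoter peak or with the 4 widest, and exceptions among markers. Ppip5k1, Klc3, Apol6, Trmt61a, Bag5, Apopt1, Zcchc9, Mark4 and Slc6a8, the reference start and both printed windows of 300 bases were chosen after values were seen. Alternatives were other lists, thresholds, windows and start sites. A further consensus sequence is not reported here.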

Additional observations from a re-analysis of the deposited data

How the results depend on the processing

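The count of 6 members with a promoter peak ranged from 5 to 7 over 8 alternatives. It was 5 in the pooled list and with folds at or above the list median, each time without Gatm, and 7 with a promoter window of 2.5 kb, where the peak at the Ppip5k1 start counted for Ckmt1. Leaving out 1 replicate gave 5 to 6. The 60 peaks became 34 with folds at or above the list median, 35 with windows of 25 kb and 125 with windows of 100 kb. The median acetylated length of 11.6 kb became 5.30 kb with 25 kb, 32.4 kb with 100 kb and 3.82 kb when only sequence nearest to the member was counted, and 10.6 to 13.3 kb with 1 replicate left out. The median of the widest promoter peaks was 3.54 kb, and 1.50 to 3.59 kb with 1 replicate left out, the lowest without replicate 2, where peaks of Ckm, Ckb and Gamt were split. A member without a promoter peak entered this median with a width of 0, as did Ckmt1 throughout and Gatm without replicate 2. Summed over 8 consensus sequences (both spelled E-boxes, MEF2, CArG box, GATA, NKX2-5, TEAD and ERR), the count of member peaks with a match at the summit was 42 in 300 bp and 84 in 500 bp. Of the values for single members, 35 of 56 acetylated lengths and 28 of 35 promoter widths moved from the main value by no more than the spread between replicates. The alternatives included both single-replicate lists, which set that spread, so these counts are partly fixed by it. No paired analysis was possible because the 2 replicates belong to 1 condition. Unknown depth limits what a missing peak means, as at Ckmt1, and the cause of the longer peaks in replicate 2 was not tested.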
